A study of Arabidopsis thaliana with 18 samples.

Results

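ALPHA-VPE (AT2G25940) and scpl28 (AT2G35770) encode 2 hydrolases of Arabidopsis thaliana, and their transcripts were followed through the conversion of cotyledon tissue into vascular cells. ALPHA-VPE is a vacuolar processing enzyme and scpl28 is serine carboxypeptidase-like protein 28. The probe sets were those that the platform annotation maps to a single gene with either symbol, which gave 2 of 38408 probe sets, 1 for each gene, and neither had values identical to those of another probe set. Both genes were chosen by their lower signal in the mutants than in wild type on these same arrays, so that difference is described here and not tested.

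Vacuolar processing enzymes are cysteine proteases of the legumain family. They mature other vacuolar proteins by cutting them at asparagine or aspartate residues, and members of the family take part in plant cell deaths in which the vacuole collapses. Serine carboxypeptidase-like proteins form a large plant family related to the carboxypeptidases, which trim residues from the end of a protein; several members are acyltransferases of secondary metabolism instead. Tracheary elements, the water-conducting cells of xylem, die as part of their differentiation, and their contents are cleared by hydrolases after the vacuole breaks open.

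The bes1-1 and bes1-3 mutants, labelled as T-DNA insertion lines, were set against the Col wild type (WT). The transcription factor BES1 acts in the brassinosteroid pathway. Cotyledons of plants 6 days old were taken after 72 h in VISUAL, a culture in which leaf cells are turned into vascular cells, or at 0 h without culture. The culture medium held 2,4-D, an auxin, at 1.25 mg/L, kinetin, a cytokinin, at 0.25 mg/L and, at 10 µM, bikinin, which inhibits kinases of the GSK3 type. The 6 groups were bes1-1, bes1-3 and WT at 72 h and bes1-1, bes1-3 and WT at 0 h, each with 3 arrays numbered replicates 1 to 3, and all groups were whole cotyledons of plants grown in liquid MS medium under continuous light. Whether replicates of a group are separate cultures is not stated, and each p-value rests on the spread between samples that may be technical.

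Values are log2 signals, each from 1 array. The 6 arrays of replicate 1 were on a lower scale than the other 12, with lower quartiles of 3.145 to 3.223 against 4.015 to 4.137, and every group held 1 array of each replicate number. Levels are therefore also given as the distance in log2 units above the lower quartile of the same array. That takes out the shift at the lower quartile, whereas the shift was smaller for brighter signals. In WT at 0 h, replicates 1 and 2 had lower quartiles of 3.207 and 4.091 but upper quartiles of 7.687 and 8.19. The main fit used the deposited values with no term for the replicate number, so its SEs include the shift. Of 8 mesophyll markers 3 were measured (PORB, PRK and SBPASE), and the log2 of their summed signal was 9.239 to 11.05 on the 9 arrays at 72 h, against 12.52 to 13.18 on the 9 arrays at 0 h. The probe sets of BES1 itself are not named by the platform annotation, so the targeted gene was not used to check the labels. In this text a gene counts as measured where the annotation maps a probe set to it alone. Other genes may be on the array under probe sets that the annotation does not name.

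In WT, ALPHA-VPE stood at 7.721, 9.463 and 9.429 log2 signal in replicates 1, 2 and 3 at 72 h, against 3.779, 4.624 and 3.968 at 0 h. The lowest 72 h array lay far above the highest 0 h array. The rise was 4.75 ± 0.48 on the log2 scale (SE of the fit, n = 3 arrays each), a 26.9-fold higher signal, with a limma adjusted p of 2.77e-06. Each replicate number showed it, with differences of 3.94, 4.84 and 5.46.

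For scpl28, the WT values were 6.455, 7.594 and 7.042 log2 signal in replicates 1, 2 and 3 at 72 h, against 3.459, 4.413 and 4.414 at 0 h. These groups did not overlap either. The rise of scpl28 was 2.93 ± 0.39, a 7.65-fold higher signal (limma adjusted p = 3.98e-05), and the replicate differences of 3.00, 3.18 and 2.63 were close to each other. Both genes were thus called higher in the WT induction, where 8.7% of all probe sets were called higher. The arrays at 72 h of all 3 genotypes also enter the mutant differences by which the genes were picked, so neither the WT rises nor the mutant changes given below are independent of the choice.

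**Figure D1:**
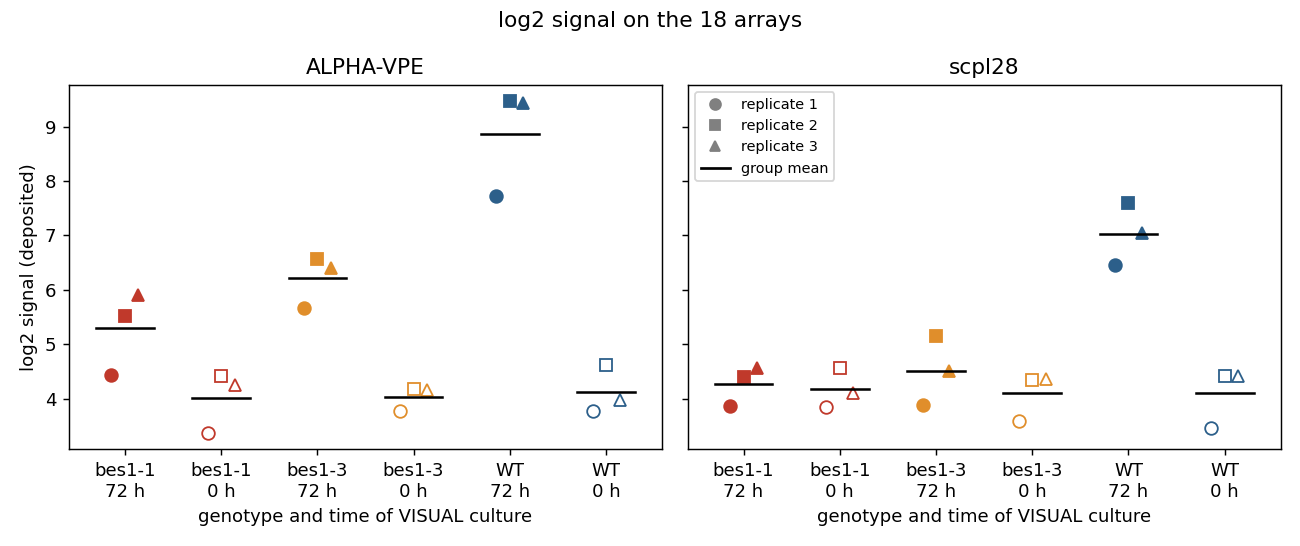
Deposited log2 signal (vertical axis) of ALPHA-VPE and scpl28 on the 18 arrays, by genotype and time. Filled symbols are 72 h, open symbols 0 h, shapes are replicate numbers and bars are group means. WT at 72 h stands above every other group for both genes, at means of 8.871 and 7.03.

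In bes1-1 the rise of ALPHA-VPE was small. Its values were 4.443, 5.524 and 5.910 log2 signal in replicates 1, 2 and 3 at 72 h, against 3.376, 4.425 and 4.258 at 0 h. The arrays at 72 h were all above those at 0 h, although the lowest 72 h array and the highest 0 h array nearly met. The difference was 1.27 ± 0.48 and was not called (limma adjusted p = 0.076; 10.9% of probe sets were called higher in the bes1-1 induction). With the replicate number as a block it was 1.27 ± 0.25 and was called (limma adjusted p = 0.00113), and it was also called without bes1-1 replicate 1 at 72 h, at 1.70 (limma adjusted p = 0.0257). The differences by replicate number were 1.07, 1.10 and 1.65.

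ALPHA-VPE rose further in bes1-3. It stood at 5.663, 6.569 and 6.408 log2 signal in replicates 1, 2 and 3 at 72 h, against 3.770, 4.174 and 4.162 at 0 h. All 72 h arrays were above all 0 h arrays, by 2.18 ± 0.48 on the log2 scale between the means (4.53-fold; limma adjusted p = 0.00303; 10.3% of probe sets were called higher in the bes1-3 induction). Leaving out single arrays gave 2.00 to 2.45.

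Neither mutant had a called change of scpl28 between 72 h and 0 h. In bes1-1 it was 3.865, 4.393 and 4.556 log2 signal in replicates 1, 2 and 3 at 72 h, against 3.855, 4.570 and 4.103 at 0 h. The 2 groups of bes1-1 overlapped. In bes1-3 it was 3.879, 5.156 and 4.516 at 72 h, against 3.587, 4.351 and 4.366 at 0 h. These overlapped too, although 2 of the 3 bes1-3 arrays at 72 h were above all those at 0 h and the differences by replicate number were 0.29, 0.80 and 0.15. The changes were 0.10 ± 0.39 in bes1-1 (95% interval -0.74 to 0.93; limma adjusted p = 0.901) and 0.42 ± 0.39 in bes1-3 (-0.42 to 1.25; limma adjusted p = 0.558). These intervals still allow a rise of up to 0.93 and 1.25 on the log2 scale. With the replicate block the changes were 0.10 ± 0.17 and 0.42 ± 0.17, neither called (limma adjusted p = 0.653 and 0.0577).

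These genes were picked as lower in the mutants, so their mutant difference at 72 h is given as a description. ALPHA-VPE was lower than in WT by 3.58 ± 0.48 in bes1-1 and by 2.66 ± 0.48 in bes1-3, and no mutant array reached a WT array. By replicate number its differences were -3.28, -3.94 and -3.52 in bes1-1 and -2.06, -2.89 and -3.02 in bes1-3. For scpl28 the differences were -2.76 ± 0.39 in bes1-1, with -2.59, -3.20 and -2.49 by replicate number, and -2.51 ± 0.39 in bes1-3, with -2.58, -2.44 and -2.53. In these comparisons 0.599% and 0.0729% of all probe sets were called lower in bes1-1 and in bes1-3. As a signal ratio ALPHA-VPE was 11.9-fold lower in bes1-1 and 6.31-fold lower in bes1-3; no ratio is given for scpl28, whose mutant signals at 72 h lay near the low 0 h signals described next. Subtracting the WT induction from that of the mutant gave -3.47 ± 0.68 (bes1-1) and -2.57 ± 0.68 (bes1-3) for ALPHA-VPE and -2.84 ± 0.55 and -2.52 ± 0.55 for scpl28, again as a description. In whole cotyledons, fewer cells of a type and less RNA per cell cannot be told apart.

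Before culture the genotypes showed no called difference in either gene. The choice is described only as lower in the mutants, so whether the 0 h arrays took part in it is not known. ALPHA-VPE differed from WT by -0.10 ± 0.48 in bes1-1 (95% interval -1.12 to 0.92) and by -0.09 ± 0.48 in bes1-3 (-1.11 to 0.93). For scpl28 these values were 0.08 ± 0.39 (-0.75 to 0.91) and 0.01 ± 0.39 (-0.83 to 0.84). All 4 had a limma adjusted p of 1, in comparisons where 0.0208% (bes1-1) and 0.00781% (bes1-3) of probe sets were called, and the groups overlapped. Over the 9 arrays at 0 h, ALPHA-VPE ranged from 0.169 below to 0.573 above the lower quartile of its array, and scpl28 from 0.0146 to 0.632 above it. Signals that low may be background, which limits what can be said of differences at 0 h and makes the size of the rises uncertain.

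**Figure D2:**
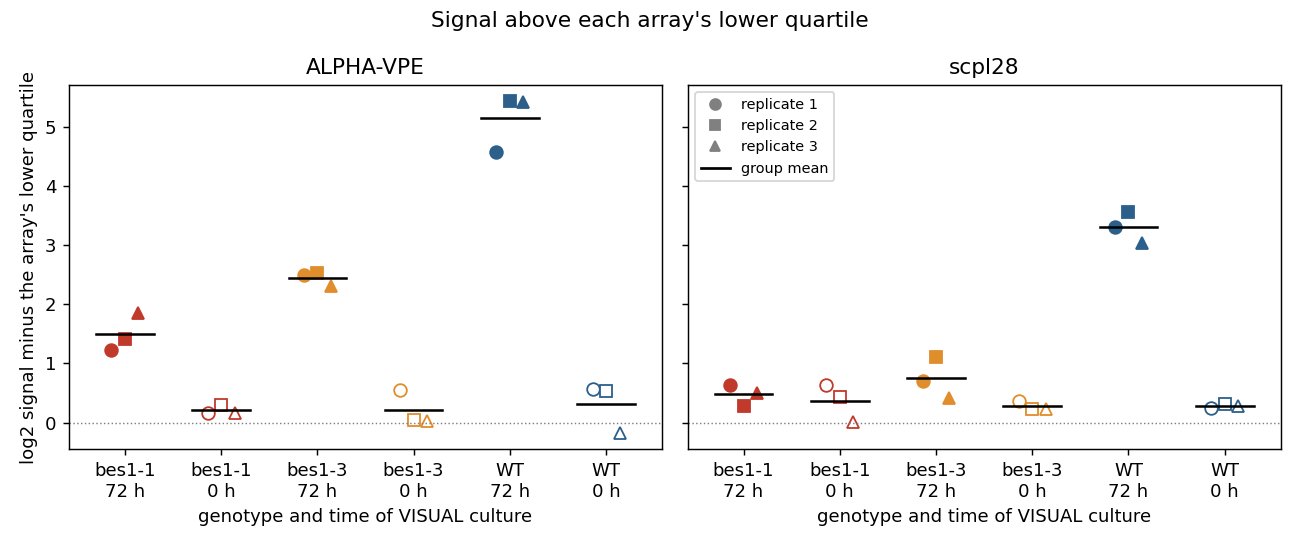
Log2 signal minus the lower quartile of the same array (vertical axis, dotted line at 0) for ALPHA-VPE and scpl28, by genotype and time. Filled symbols are 72 h, open symbols 0 h, and bars are group means. For ALPHA-VPE bes1-1, bes1-3 and WT at 72 h form separate steps at means of 1.5, 2.45 and 5.14, whereas the mutants at 72 h stay within 1.12 of the line for scpl28.

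Measured above the lower quartile of each array, the 6 groups of ALPHA-VPE fell into an order with 3 steps. The step between the mutants and WT holds the difference by which the gene was chosen. Scaling to the lower quartile was added to the fits after seeing the data, and how many other probe sets separate in this way was not counted. The level was 1.22 to 1.85 in bes1-1, 2.31 to 2.53 in bes1-3 and 4.58 to 5.42 in WT at 72 h, against at most 0.573 at 0 h in any genotype. No 2 of these ranges overlapped, while the 3 groups at 0 h did not separate. On the deposited scale bes1-1 and bes1-3 overlapped at 72 h, and bes1-1 at 72 h overlapped WT at 0 h. The difference between the alleles at 72 h, bes1-1 minus bes1-3, was -0.92 ± 0.48 (95% interval -1.94 to 0.10). It was not called (limma adjusted p = 1, where 0.0104% of probe sets were called). With the replicate block it was -0.92 ± 0.25 and was not called either (limma adjusted p = 0.121). By replicate number it was -1.22, -1.05 and -0.50. Within each array the share of probe sets with a lower value than ALPHA-VPE was 39.2% to 46.2% in bes1-1, 52.4% to 54.1% in bes1-3 and 75% to 86.8% in WT at 72 h, against 22.7% to 32.8% at 0 h.

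For scpl28, WT at 72 h lay 3.03 to 3.55 above the lower quartile, and each of the other 5 groups overlapped the next in order, with 0.286 to 0.642 in bes1-1 and 0.423 to 1.12 in bes1-3 at 72 h. On this scale bes1-3 at 72 h did not overlap bes1-3 at 0 h (0.229 to 0.366) or WT at 0 h (0.253 to 0.321). Between the alleles scpl28 differed by -0.25 ± 0.39 at 72 h (95% interval -1.08 to 0.59), and at 0 h by 0.07 ± 0.39 (-0.76 to 0.91). ALPHA-VPE differed by -0.02 ± 0.48 between the alleles at 0 h (-1.04 to 1.00). None of these 3 differences was called (limma adjusted p = 1 each; 0.0703% of probe sets were called between the alleles at 0 h).

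The other vacuolar processing enzyme genes measured rose in all 3 genotypes. BETA-VPE, known for maturing storage proteins in seeds, and GAMMA-VPE, the main form of vegetative organs, were present; the fourth gene of the family, DELTA-VPE, was not analysed here. BETA-VPE averaged 9.482 ± 0.508 log2 signal in bes1-1, 8.753 ± 0.447 in bes1-3 and 9.371 ± 0.194 in WT at 72 h, against 7.356 ± 0.0711, 7.366 ± 0.447 and 7.761 ± 0.237 at 0 h (SD, n = 3 each). It rose in every genotype, by 2.13 in bes1-1, 1.39 in bes1-3 and 1.61 in WT (limma adjusted p = 8.11e-05, 0.0025 and 8.06e-04). GAMMA-VPE rose by 1.62 in bes1-1, 1.52 in bes1-3 and 1.72 in WT (limma adjusted p = 1.23e-04, 1.7e-04 and 5.68e-05), with SDs of 0.0224 to 0.385 around its group means.

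Neither of them was called between mutant and WT at 72 h. GAMMA-VPE differed by 0.03 in bes1-1 (95% interval -0.48 to 0.53) and by -0.09 in bes1-3, and BETA-VPE by 0.11 and -0.62 (limma adjusted p of 0.988 to 1). Beside these values stand the differences of -3.58 and -2.66 for ALPHA-VPE, which was chosen as lower in the mutants.

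Among serine carboxypeptidase-like genes 32 of 51 were measured, by 33 probe sets, since scpl50 had 2. Apart from scpl28, 5 of the 32 other probe sets were called higher in the WT induction and 4 lower, against 8.7% and 10.8% of all probe sets, and their median change was -0.03 on the log2 scale, as over all probe sets. The counts higher and lower were 4 and 4 in the bes1-1 induction and 5 and 6 in the bes1-3 induction, with medians of 0.08 and -0.23; of all probe sets, 10.9% were called higher and 9.76% lower in bes1-1, and 10.3% and 11.4% in bes1-3. With the replicate block 9 were called higher and 6 lower in the WT induction, and 7 higher and 7 lower in that of bes1-1. Of all 38408 probe sets, the block called 15250 in the WT induction and 19372 in that of bes1-1, in either direction.

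Several rises of this family were called in all 3 genotypes. The rise of scpl20 was 4.68 in bes1-1, 4.99 in bes1-3 and 5.61 in WT, and that of SCPL45 was 3.74, 3.89 and 2.86 (limma adjusted p of at most 3.23e-05 for each). SCPL49, which the gene table also names carboxypeptidase Y after the vacuolar enzyme of yeast, rose by 1.22, 1.13 and 1.58 (limma adjusted p = 8.1e-04, 0.00123 and 6.3e-05). Among the falls, scpl42 changed by -1.30, -1.67 and -2.12 and scpl29 by -1.14, -1.19 and -1.68 in bes1-1, bes1-3 and WT, all called; scpl42 was no longer called in bes1-1 without replicate 1 at 72 h (limma adjusted p = 0.0754), replicate 2 at 0 h (0.0607) or replicate 3 at 0 h (0.0719).

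The locus next to scpl28 in the gene table, scpl26, ran the other way. It averaged 9.180 ± 0.513 log2 signal in bes1-1, 8.871 ± 0.409 in bes1-3 and 9.346 ± 0.422 in WT at 72 h, against 10.21 ± 0.349, 10.22 ± 0.374 and 10.23 ± 0.384 at 0 h (SD, n = 3 each). The changes were -1.03, -1.35 and -0.89, of which that of WT was not called (limma adjusted p = 0.0804, and 4.19e-05 with the replicate block). That of bes1-1 (limma adjusted p = 0.0389) was not called without replicate 1 at 72 h (0.143), replicate 3 at 72 h (0.114), replicate 2 at 0 h (0.106) or replicate 3 at 0 h (0.13). Mutant and WT levels of scpl26 at 72 h differed by -0.17 in bes1-1 and -0.48 in bes1-3, neither called (limma adjusted p = 1; 0.0321 in bes1-3 with the replicate block).

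At 72 h, 1 of the 32 other probe sets of the family was called lower in bes1-1 than in WT and 1 higher, where 0.599% and 0.245% of all probe sets were. In bes1-3 limma called 0 of them, where 0.13% of all probe sets were called. An unadjusted p below 0.05 was held by 5 of them there, against 1957 of all 38408 probe sets. With the replicate block 4 were lower and 2 higher in each mutant. That fit called 5163 of all 38408 probe sets in bes1-1 and 2807 in bes1-3, in either direction. Over these 32 the differences ran from -1.65 to 1.18 in bes1-1 and from -1.97 to 1.06 in bes1-3, with medians of 0.03 and -0.12. The probe set called lower was scpl48, at -1.23 (limma adjusted p = 0.0472). That call was lost without replicate 1 (limma adjusted p = 0.17) or 2 (0.161) of bes1-1 and without replicate 2 (0.288) or 3 (0.227) of WT. SCPL34 was the probe set called higher, at 1.18 (limma adjusted p = 0.033), and was not called after median scaling (0.0559), after scaling to a common lower quartile (0.0874), or without replicate 2 (0.156) or 3 (0.0763) of bes1-1 or replicate 2 (0.214) or 3 (0.162) of WT. The lowest values among the 32 were those of SCPL32, -1.65 in bes1-1 and -1.97 in bes1-3 (limma adjusted p = 0.143 and 0.174, 0.0237 and 0.0181 with the replicate block). SCPL32 averaged 3.333 ± 0.252 log2 signal in bes1-1, 3.018 ± 0.681 in bes1-3 and 4.984 ± 0.847 in WT at 72 h (SD, n = 3 each). Both mutant means lay below the lower quartile of their arrays (3.796 and 3.767). From 0 h to 72 h SCPL32 changed by -1.25 in bes1-1, -0.7 in bes1-3 and 1.36 in WT. None was called (limma adjusted p = 0.069, 0.355 and 0.0503), while the replicate block called bes1-1 (0.0272) and WT (0.022).

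**Figure D3:**
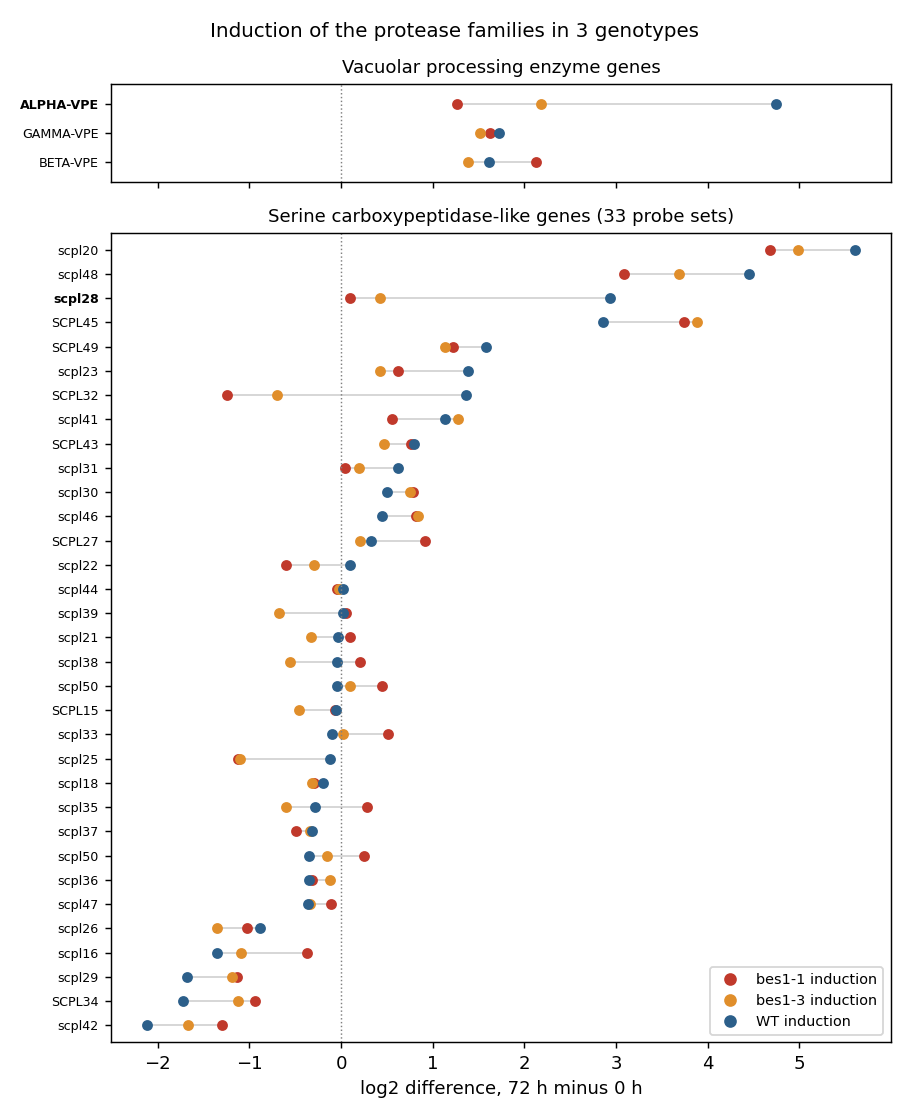
Log2 difference of 72 h minus 0 h (horizontal axis) for 3 vacuolar processing enzyme genes and the 33 probe sets of serine carboxypeptidase-like genes, with a point for bes1-1, bes1-3 and WT. ALPHA-VPE (1.27, 2.18 and 4.75) and scpl28 (0.10, 0.42 and 2.93) have WT points far to the right of both mutant points, whereas those of GAMMA-VPE lie between 1.52 and 1.72. The WT point of SCPL32 (-1.25, -0.7 and 1.36) also lies to the right of both of its mutant points.

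Other hydrolase genes were taken from lists written from general knowledge of Arabidopsis, with earlier results of these data known. Of 14 genes linked to developmental cell death or its nucleases 4 were measured: AT2G14095, AT4G04460, AT4G18425 and scpl48. All 4 rose in WT, by 4.45 to 5.84 on the log2 scale, with a median of 5.17 against -0.03 over all probe sets. In bes1-3 all 4 rose as well, by 2.37 to 4.17, and in bes1-1 2 were called higher, AT4G04460 by 2.99 and scpl48 by 3.09. All 4 rises in WT and in bes1-3 were called by limma. Of all probe sets, 8.7% were called higher in the WT induction, 10.3% in that of bes1-3 and 10.9% in that of bes1-1. AT2G14095 stood at 1.37 and AT4G18425 at 2.40 in bes1-1 (limma adjusted p = 0.179 and 0.0929, 0.00239 and 2.22e-05 with the replicate block); AT4G18425 was also called without bes1-1 replicate 1 at 72 h, at 3.29 (0.0273).

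At 72 h, 3 of these 4 genes were called lower by limma in bes1-1 than in WT, where 0.599% of all probe sets were. In bes1-3 limma called 0 of the 4, where 0.0729% of all probe sets were called lower. All 4 had an unadjusted p below 0.05 in bes1-3, as did 1957 of all 38408 probe sets. With the replicate block all 4 were called in both mutants. That fit called 5163 of all 38408 probe sets in bes1-1 and 2807 in bes1-3, in either direction. AT2G14095 averaged 4.618 ± 0.896 log2 signal in bes1-1, 5.485 ± 1.20 in bes1-3 and 8.633 ± 1.15 in WT at 72 h (SD, n = 3 each). Its mean lay below the lower quartile at 0 h in every genotype. It was lower by 4.02 in bes1-1 (limma adjusted p = 0.01, or 0.082 and 0.069 when the WT array of replicate 2 or of replicate 3 was left out) and by 3.15 in bes1-3 (0.123; 2.28e-04 with the replicate block and 0.0396 when the WT array of replicate 1 was left out). AT4G04460 was lower than in WT by 2.50 in bes1-1 (limma adjusted p = 0.0106, or 0.0882 and 0.0688 with the WT array of replicate 2 or of replicate 3 left out and 0.0555 with the bes1-1 array of replicate 2 left out) and stood at -1.13 in bes1-3 (0.725; 0.0443 with the replicate block). AT4G18425 stood at -3.46 and -2.32 (limma adjusted p = 0.135 and 0.825; 2.57e-05 and 0.00111 with the replicate block). In the inductions of bes1-3, AT2G14095 and AT4G18425 were not called without replicate 1 at 0 h (limma adjusted p = 0.0837 and 0.0581), replicate 2 at 72 h (0.0914 and 0.0662) or replicate 3 at 72 h (0.0767 and 0.0569).

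The list of aspartic proteases, which shares AT4G04460 with the list above, had 3 of 3 genes measured. APA1, aspartic proteinase A1, changed little, by -0.01 in bes1-1, 0.39 in bes1-3 and 0.49 in WT. Limma called the WT value (adjusted p = 0.0488) and, with the replicate block, also that of bes1-3 (0.00653). Leaving out any of the 6 WT arrays ended the WT call (limma adjusted p of 0.0533 to 0.18). So did median scaling (0.44), scaling to a common lower quartile (0.333) and a fit of only the WT groups (0.312). AT1G62290 was lower at 72 h than at 0 h, by 2.25 in bes1-1 and 2.77 in bes1-3 (limma adjusted p = 1.65e-05 and 1.53e-06), and by 0.90 in WT (0.024). Its mutant levels at 72 h were below WT by 1.62 in bes1-1 and 1.66 in bes1-3 (limma adjusted p = 0.00888 and 0.0282). These calls depended on single arrays. Without WT replicate 2 or 3 at 72 h they were lost in bes1-1 (0.0666 and 0.0564) and in bes1-3 (0.182 and 0.162), and in bes1-3 also without its own replicate 1 (0.157) or 3 (0.192). The WT fall was not called without any single array of WT (0.0531 to 0.0811) except replicate 3 at 0 h. Over 14 alternatives, which include these omissions, the bes1-1 call was kept in 11, the bes1-3 call in 7 and the WT fall in 5. The highest limma adjusted p among them was 0.145, 0.615 and 0.18.

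Papain-type cysteine proteases, the class that holds many vacuolar enzymes, had 2 of 13 genes measured. AT4G01610 rose by 1.87 in bes1-1, 1.58 in bes1-3 and 2.00 in WT (limma adjusted p = 0.005, 0.0138 and 0.00286), and AT3G19390 by 1.63 in bes1-3 and 1.68 in WT (0.0311 and 0.0286), with 0.98 in bes1-1 (0.213; 3.03e-04 with the replicate block). Neither was called between mutant and WT at 72 h, at -0.49 and -0.36 in bes1-1 and -0.31 and -0.28 in bes1-3 (0.991 to 1; AT4G01610 in bes1-1 0.0402 with the replicate block). In the WT induction AT3G19390 was not called without replicate 1 at 0 h (0.135) or replicates 2 (0.121) or 3 (0.0885) at 72 h. In the bes1-3 induction it was not called without replicates 1 (0.147) or 3 (0.0562) at 0 h or replicates 2 (0.145) or 3 (0.0789) at 72 h, and AT4G01610 was not called without replicate 1 at 0 h (0.0605) or replicates 2 (0.07) or 3 (0.0647) at 72 h. Of 12 genes of the tonoplast and of vacuolar sorting, the proton pump subunit genes VHA-A2 and VHA-A3 were measured, and neither was called by limma in any induction or had an unadjusted p below 0.05, with changes of -0.32 to 0.21. No metacaspase gene of a list of 9 had a probe set that the platform annotation maps to it alone.

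**Figure D4:**
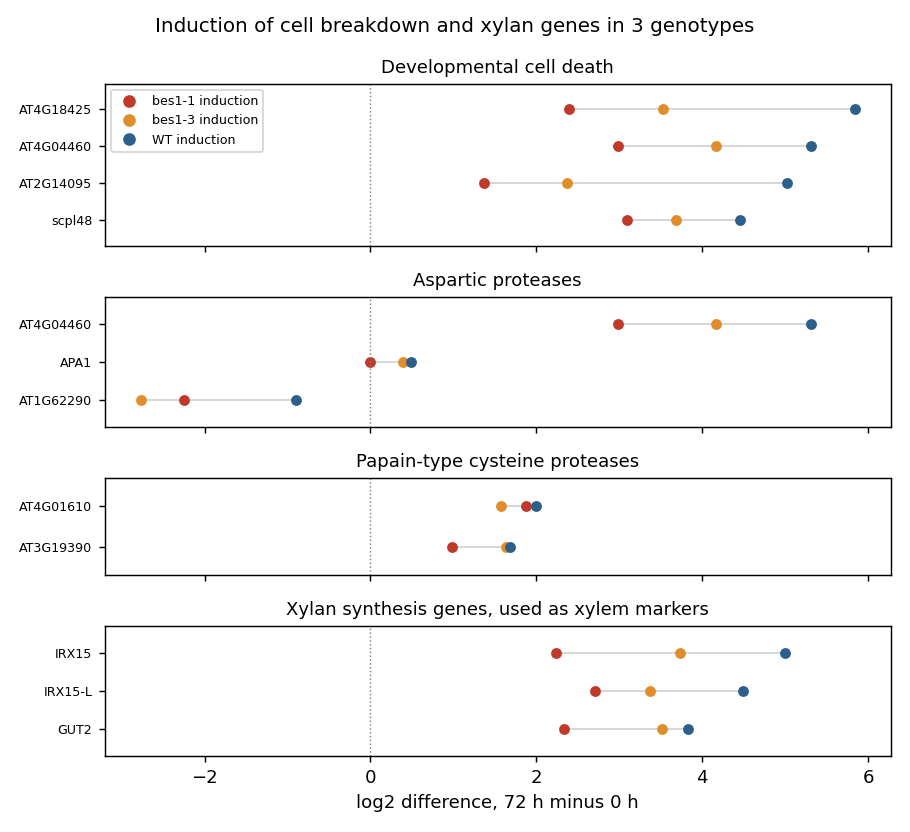
Log2 difference of 72 h minus 0 h (horizontal axis) for genes of the developmental cell death, aspartic protease, papain-type protease and xylem marker lists, with a point for bes1-1, bes1-3 and WT. In the developmental cell death and xylem marker lists the points run from bes1-1 through bes1-3 to WT, as in IRX15 (2.24, 3.73 and 5.0).

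Markers of other cell types moved beside these genes. Of 12 xylem markers 3 were measured, all of xylan synthesis (IRX15, IRX15-L and GUT2). All 3 were called higher by limma in each genotype, where 10.9% (bes1-1), 10.3% (bes1-3) and 8.7% (WT) of all probe sets were. At 72 h 2 were called lower by limma in bes1-1 than in WT and 0 in bes1-3. Of all probe sets, 0.599% and 0.0729% were called lower there. In bes1-3, 1 marker had an unadjusted p below 0.05, as did 1957 of all 38408 probe sets. With the replicate block GUT2 was also called in bes1-1 (limma adjusted p = 2.86e-04) and IRX15 in bes1-3 (0.0142). The differences of IRX15, IRX15-L and GUT2 were -2.88, -2.19 and -1.49 in bes1-1 and -1.58, -0.79 and -0.38 in bes1-3. The log2 of their summed signal was 9.803 to 11.55 in bes1-1, 11.29 to 12.23 in bes1-3 and 11.94 to 12.79 in WT at 72 h, against 7.84 to 8.883 at 0 h, and no marker lay below the lower quartile in a 72 h group. IRX15 lost its call in bes1-1 without bes1-1 replicate 1 (limma adjusted p = 0.0783) or WT replicates 2 (0.134) or 3 (0.119), and IRX15-L without bes1-1 replicates 1 (0.108) or 2 (0.0913) or WT replicates 2 (0.177) or 3 (0.147). Of 6 phloem markers 3 were measured, and limma called 0 between mutant and WT at 72 h. An unadjusted p below 0.05 was held by 1 in bes1-1 and 0 in bes1-3, against 3286 and 1957 of all 38408 probe sets. With the replicate block CLE45 was called lower in bes1-1, at -1.08 (limma adjusted p = 0.00861), and SWEET11 higher, at 1.21 (0.0154). These markers thus moved in opposite directions. The log2 of the summed signal of the 3 phloem markers at 72 h was 8.639 to 10.08 in bes1-1, 8.543 to 9.57 in bes1-3 and 8.107 to 8.85 in WT, against 10.96 to 12.26 at 0 h. From 0 h to 72 h SWEET11 changed by -3.47 in bes1-1, -4.18 in bes1-3 and -4.53 in WT, while CLE45 and OPS were called higher in each genotype. The sum therefore mixes opposite changes and is no measure of the amount of phloem. The part of these cell types in the mutant levels of ALPHA-VPE and scpl28 was not tested.

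The genes most like each of the 2 were sought among 16720 probe sets with 1 gene, by the root mean square difference between the 6 group means after each profile was centred on its own mean. For ALPHA-VPE the nearest were AT2G14095 (0.216 log2 units), AT1G05310 (0.218), AT5G02090 (0.261), AT5G23750 (0.263) and AT1G69050 (0.295). Over the 18 arrays, with the mean of each replicate number taken off, their Pearson correlations with ALPHA-VPE were 0.963 to 0.986, as a description of arrays that share groups and batches. AT1G05310 averaged 6.128 log2 signal in bes1-1, 7.427 in bes1-3 and 10.11 in WT at 72 h, against 5.567, 5.424 and 5.455 at 0 h. All 5 shared the order of bes1-1, bes1-3 and WT at 72 h, which follows largely from their choice by these same group means.

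Nearest to scpl28 were AT1G17030 (0.113 log2 units), M17 (0.143), AT4G13450 (0.175), AT1G23120 (0.250) and AT2G31945 (0.253), with correlations of 0.900 to 0.973. AT1G17030 averaged 4.173 log2 signal in bes1-1, 4.788 in bes1-3 and 7.073 in WT at 72 h, against 4.335, 4.170 and 4.198 at 0 h. M17 stood at 4.822, 4.867 and 7.104 at 72 h, against 4.432, 4.342 and 4.396 at 0 h. In both, no array of another group reached a WT array at 72 h, although they were picked for group means like those of scpl28. AT4G13450 lay below the lower quartile in every group but WT at 72 h. ALPHA-VPE and scpl28 were not among each other's nearest genes: the root mean square difference between them was 0.833, scpl28 came at rank 159 for ALPHA-VPE and ALPHA-VPE at rank 892 for scpl28, and their correlation over the 18 arrays was 0.919.

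**Figure D5:**
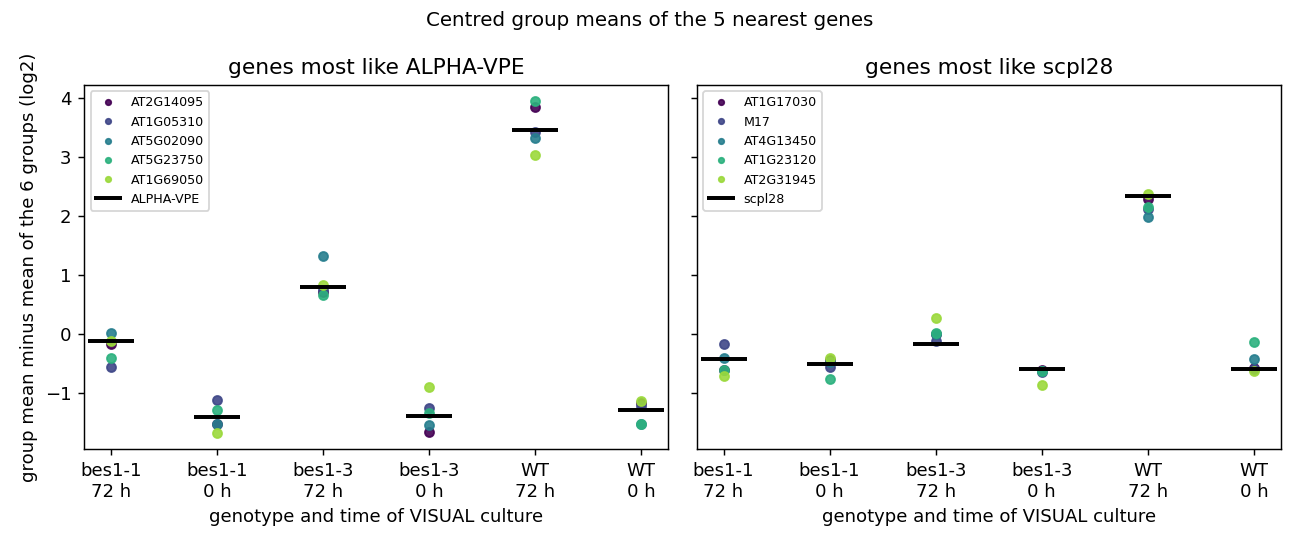
Group means of ALPHA-VPE and scpl28 (black bars) and of the 5 genes nearest to each (points), each minus its own mean over the 6 groups (vertical axis, log2 units), by genotype and time. The left profile has steps between bes1-1, bes1-3 and WT at 72 h, and the right one stands highest in WT at 72 h.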

How the data were processed

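Deposited values for 18 arrays were analysed. The authors made these log2 signals in Expression Console of Affymetrix, per the submitters' processing notes; its version, background step, normalization and summary method are not given in the sources used. They were used as log2 signals as deposited, the base being inferred from their range. Genes were named through the platform table (16722 probe sets with 1 gene, 759 with several, 20927 unlisted) and 16574 were matched to TAIR10.1 loci, used for names and neighbours only. No sequence or coordinate is given.

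Limma 3.58.1 in R 4.3.3 fitted 6 group means over all 18 arrays (12 residual degrees of freedom), with Benjamini-Hochberg adjustment over 38408 probe sets and calls at an adjusted p below 0.05. The fit was also run on simulated data with known changes and noise drawn independently for each array. That simulation held no shift of replicate 1, so it cannot show how the fit behaves under that shift. Figures used matplotlib 3.10.9 in Python 3.11.15. The members and lists were chosen with earlier results of these data known. Genes were named by rule: the 2 members, all genes of their 2 families, up to 4 called genes of each other list (up to 2 uncalled where none was called) and the 5 most alike.

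Deviations of same-numbered arrays from their group means correlated over 0.1 for every replicate number in 8 of 9 comparisons of 2 groups (lowest r 0.168). The numbers were taken to pair the samples there, although in 7 of the 9 a pair of different numbers correlated above the lowest same-number r. For bes1-1 minus WT at 0 h the lowest r was 0.0106. The main fit nevertheless held no term for the replicate number, so a difference not called there may be called with the replicate block. For the bes1-1 induction of ALPHA-VPE the SE was 0.48 in the main fit and 0.25 with the block. The number of arrays limits the precision. Alternatives were array scaling, quantile normalization, the replicate block, replicates 2 and 3 alone, a filter on dim probe sets, fits of only the compared groups, a trended robust eBayes and omission of single arrays. A scaling to a common lower quartile was added after seeing the data.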

Additional observations from a re-analysis of the deposited data

How the results depend on the processing

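Over 14 to 20 alternatives, every tested comparison of ALPHA-VPE and scpl28 kept its side of the threshold except the ALPHA-VPE induction in bes1-1. The untested differences from WT at 72 h kept their sign, with ranges of -4.15 to -3.15 (bes1-1) and -3.23 to -2.36 (bes1-3) for ALPHA-VPE and -3.05 to -2.48 and -2.83 to -2.19 for scpl28, and those in induction did so too. The ALPHA-VPE change in bes1-1 was not called by limma as fitted (1.27) but was called after median scaling (1.00), quantile normalization (1.17), with the replicate block (1.27), within replicates 2 and 3 (1.37) and after scaling to a common lower quartile (1.29); omission of single arrays gave 0.95 to 1.70. The replicate block changed no other call of the 2 genes. Median scaling moved the median of all probe sets to -0.243 in the bes1-1 induction, -0.133 in that of bes1-3 and -0.12 in that of WT, so values on that scaling are read against these shifts. The planned ranking of similar genes on median-scaled arrays could not differ, since that scaling adds 1 constant to all genes of an array.

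Counts of called probe sets depended more on the fit. The WT induction had 7494, and 15250 with the block; that of bes1-1 had 7939 and 19372, and that of bes1-3 8358 and 17502. Against WT at 72 h there were 324 in bes1-1 (5163 with the block, 2 in a fit of only these groups) and 50 in bes1-3 (2807 and 0). At 0 h there were 8 in bes1-1 (41 with the block, 3 at the lowest) and 3 in bes1-3 (6 and 0). Between the alleles there were 4 at 72 h (446 and 2) and 27 at 0 h (301 and 0). The share called higher in the bes1-1 induction was 52.8%, and 32.3% after median scaling; against WT at 72 h it was 29% and 16.6% in bes1-1 and 44% and 19.9% in bes1-3. The causes were not tested.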
